A study of Rattus norvegicus with 4 samples.

Results

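Oxidative phosphorylation is the inner-membrane machinery by which mitochondria make ATP, and its subunit genes were followed here across the cell types of rat orbitofrontal cortex after methamphetamine (METH). Members were taken by gene symbol: the protein-coding genes of the mitochondrial genome (Mt-nd, Mt-co, Mt-cyb and Mt-atp) and the nuclear genes named Ndufa, Ndufb, Ndufc, Ndufs, Ndufv, Sdha to Sdhd, Uqcr, Cox4 to Cox8 and Atp5, without the assembly factors. They came to 102 of the 25399 genes in the files, 13 mitochondrially encoded and 89 nuclear-encoded, the latter with 85 symbols. Cox6b1, Uqcrb, Ndufa10l1 and Ndufv3 each stand on 2 gene identifiers, and the sources used here do not say how reads were split between such copies, so their values are uncertain. Of the members, 95 had enough counts to be tested over all nuclei, 39 in each of the 7 cell classes below and 11 in no class, and 1 had no counts.

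The respiratory chain passes electrons from NADH (complex I) and succinate (complex II) through complex III to oxygen at complex IV, and the proton gradient it builds drives ATP synthase (complex V). Each complex but complex II is a joint product of both genomes: mitochondrial DNA encodes a few core subunits, read from long polycistronic transcripts inside the organelle, and nuclear genes encode the rest, which are translated in the cytosol and imported. Some nuclear subunits exist as isoforms used by different tissues, and fast-spiking interneurons that carry parvalbumin are known for dense mitochondria. In single-nucleus libraries RNA of the mitochondrial genome is not nuclear and is carried along with the nuclei.

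Both groups were male Sprague-Dawley rats aged 8 weeks. Injections into the peritoneum lasted 7 days and contained METH at 1 mg/kg or saline. Each group had 4 animals and 2 libraries (METH replicates 1 and 2, saline replicates 1 and 2), and the sources used here do not say which animals a library holds. P-values therefore measure the spread between libraries, which may be technical. RNA was counted in single nuclei as unique molecular identifiers (UMIs, each standing for 1 captured RNA molecule).

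The libraries held 10275, 8933, 18958 and 8467 barcodes with 39552954, 37758602, 44034787 and 38811323 UMIs, with METH 1, METH 2, saline 1 and saline 2 in that order, which every list of 4 values below keeps. After filters 8943, 7937, 14643 and 7602 nuclei remained, with a median of 2896, 2800, 1963 and 3521 UMIs each. Saline replicate 1 stood apart: it had the most nuclei, the fewest UMIs per nucleus, 1.07% microglia-like nuclei against 5.84% to 7.11% elsewhere and 8.82% unnamed nuclei against 1.68% to 2.86%. Any 2 libraries shared 23 to 69 barcodes. Clusters were made without the members and named from marker lists as excitatory neuron-like (19832 nuclei), inhibitory neuron-like (4480), astrocyte-like (4051), OPC-like (2915, oligodendrocyte precursors), oligodendrocyte-like (3233), microglia-like (1742) and vascular-like (844). Another 138 nuclei were perivascular macrophage-like and 1890 stayed unnamed. Measured markers of the own class were all detected in every library, except 1 of 6 in OPC-like nuclei and 5 of 17 in the vascular-like nuclei of saline replicate 1.

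The levels of the members differed between cell types. The share of UMIs from the mitochondrial genome was lowest in excitatory neuron-like nuclei (0.0553% ± 0.0111, SD, n = 4 libraries), followed by inhibitory neuron-like (0.115% ± 0.0235) and astrocyte-like nuclei (0.123% ± 0.0371), which lay within each other's spread. OPC-like (0.213% ± 0.0467) and microglia-like nuclei (0.221% ± 0.0461) formed another such pair. Vascular-like (0.325% ± 0.0663) and oligodendrocyte-like nuclei (0.363% ± 0.0714) were highest and also within their spread.

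The summed nuclear-encoded members, in CPM (counts scaled to an equal class total in each library), ran in another order. They stood at 2065 ± 34.0 CPM in excitatory neuron-like nuclei, 2679 ± 86.1 in OPC-like, 2710.0 ± 129 in oligodendrocyte-like, 2879 ± 22.4 in inhibitory neuron-like, 3251 ± 114 in microglia-like, 3499.7 ± 89.9 in astrocyte-like and 3536 ± 370.1 in vascular-like nuclei. OPC-like and oligodendrocyte-like sums lay within their spread, as did astrocyte-like and vascular-like sums. On this scale, which is per UMI, excitatory neuron-like nuclei were lowest in every library.

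**Figure D1:**
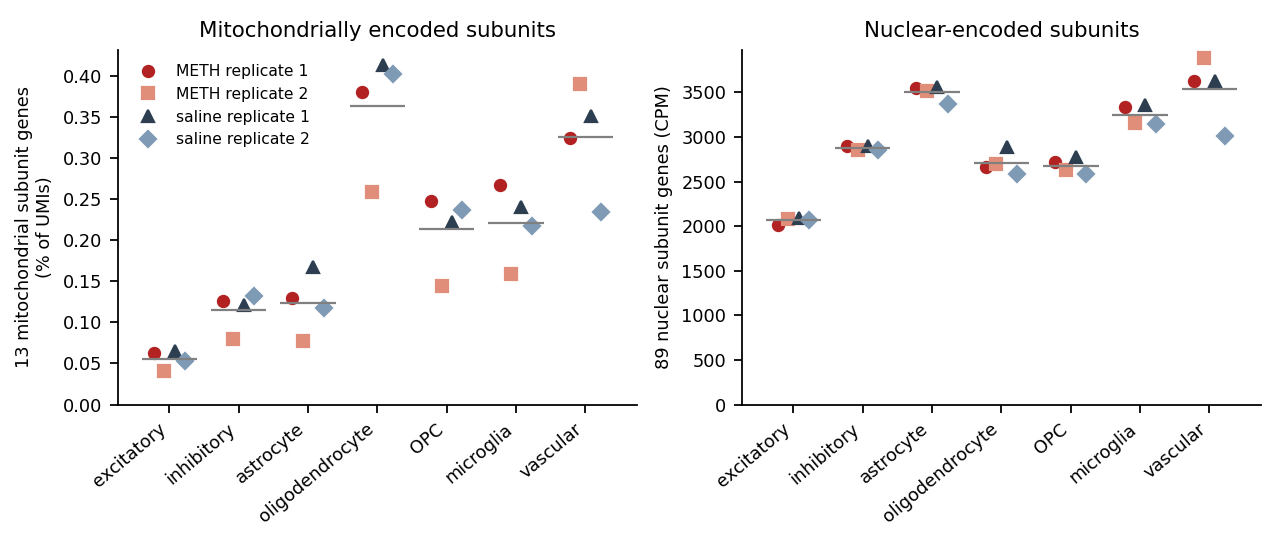
Points are the 4 libraries of each class, with the mean as a grey line: left, the share of UMIs from the 13 mitochondrially encoded genes; right, the summed CPM of the 89 nuclear-encoded genes. METH replicate 2 is lowest on the left in each class but the vascular-like one, where it is highest, and excitatory neuron-like nuclei are lowest in both panels.

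Against excitatory neuron-like nuclei, with the library as a block, mitochondrially encoded members were higher almost throughout (edgeR's quasi-likelihood test, adjusted p under 0.05). Called higher were 13 of 13 in inhibitory neuron-like (where 30.7% of all genes were), 13 of 13 in astrocyte-like (34.2%), 13 of 13 in oligodendrocyte-like (31.6%), 12 of 13 in OPC-like (31.0%), 12 of 13 in microglia-like (28.9%) and 13 of 13 in vascular-like nuclei (21.4%). Their median log2 fold changes were 0.96, 0.95, 2.57, 1.63, 1.64 and 2.16 in that order, where the median over all genes lay between −0.22 and 0.01. Other genes of the same nuclei formed the clusters, so large backgrounds are built into these contrasts.

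The ATP synthase membrane subunit Mt-atp6 stood at 543, 319, 566 and 583 CPM in oligodendrocyte-like against 76.1, 41.1, 74.1 and 63.3 CPM in excitatory neuron-like nuclei (2.89 ± 0.08 on the log2 scale, SE). Every oligodendrocyte-like value lay above every excitatory one. Mt-cyb, the core of complex III, had 2.85 ± 0.08 and Mt-co3 of complex IV 2.81 ± 0.08. In OPC-like nuclei Mt-atp6 (2.01) and Mt-cyb (1.99) again differed most among mitochondrial genes. The complex I genes Mt-nd5 (2.66), Mt-nd4 (2.59) and Mt-nd4l (2.36) led in vascular-like nuclei, Mt-nd2 (1.99) in microglia-like, and Mt-nd4 (1.14) and Mt-atp6 (1.07) in inhibitory neuron-like nuclei. In microglia-like nuclei 1 of the 2 identifiers of the complex I gene Ndufv3 was lower (−2.07 ± 0.62). It stood at 1.69 ± 2.30 CPM (SD) there against 7.09 ± 0.66 CPM in excitatory neuron-like nuclei. In the summed microglia-like nuclei 3 counts make 1.67 CPM, so the estimate rests on very few UMIs. With nuclei named by their own markers it had −0.57 and did not pass.

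Depth moved with these differences. Excitatory neuron-like nuclei held 6051, 7316, 3062 and 7119.7 UMIs each on average and oligodendrocyte-like nuclei 1236, 1456, 975 and 1420.0. The mean number of mitochondrially encoded UMIs per nucleus was 3.77, 2.95, 1.99 and 3.79 in the former and 4.70, 3.76, 4.02 and 5.72 in the latter, so a nucleus of the shallower class held more of them in every library. In inhibitory neuron-like nuclei it was 4.93, 3.58, 2.51 and 5.96 and in astrocyte-like nuclei 1.97, 1.47, 1.70 and 2.13, the latter below the excitatory value in every library. The sign of the astrocyte-like difference therefore depends on whether it is taken per UMI or per nucleus. The same holds for the nuclear-encoded sums, which were taken per UMI. Per nucleus, the deeper excitatory neuron-like nuclei held more nuclear-encoded member UMIs than astrocyte-like and oligodendrocyte-like nuclei in every library.

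**Figure D2:**
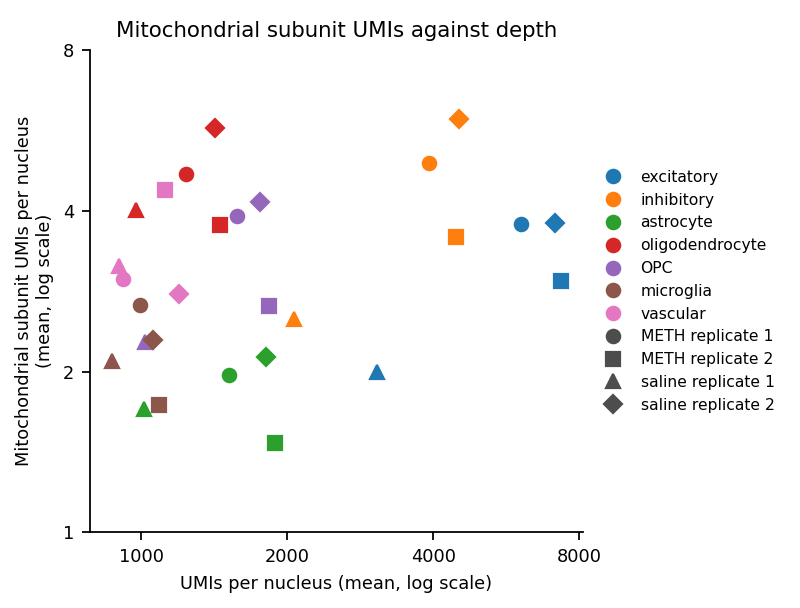
Each point is 1 class in 1 library; the horizontal axis is the mean number of UMIs per nucleus and the vertical axis the mean number of mitochondrially encoded subunit UMIs per nucleus, both on log scales. Excitatory neuron-like nuclei hold the most UMIs in every library, 3062 to 7316, yet 1.99 to 3.79 mitochondrial subunit UMIs, within the range of the other classes.

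Among nuclei of 1000 to 4000 UMIs only, a comparison chosen after seeing the data, the mitochondrial genes called higher were 10 of 12 in inhibitory neuron-like (median 0.74), 5 of 11 in astrocyte-like (0.31), 12 of 12 in oligodendrocyte-like (1.95) and 11 of 11 in OPC-like nuclei (1.24). Of all genes in that range 25.4%, 34.9%, 32.9% and 33.4% were called higher, so the astrocyte-like count was near its background. The other classes had too few nuclei in that range. Barcodes with under 500 genes, which can hold free RNA or debris, had mitochondrially encoded shares of 0.497, 0.305, 0.375 and 0.578 percent, above those of all kept nuclei. The part of free RNA in the class differences was not tested. In oligodendrocyte-like nuclei the excitatory marker Slc17a7 stood at 41.2 to 65.9 CPM against 288 to 315 CPM in excitatory neuron-like nuclei, and the summed list of 6 excitatory markers at 5886, 5534, 5576 and 5907 CPM, of which Ptprd alone was 5099 to 5693 CPM.

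Nuclear-encoded members were also more often higher than lower than in excitatory neuron-like nuclei. Called higher were 58 of 77 tested in inhibitory neuron-like, 61 of 76 in astrocyte-like, 40 of 76 in oligodendrocyte-like, 29 of 77 in OPC-like, 26 of 77 in microglia-like and 22 of 76 in vascular-like nuclei, to be read against the shares of all genes given above. Called lower were 1, 2, 6, 9, 8 and 4, where 31.3%, 38.3%, 39.5%, 35.2%, 38.3% and 27.9% of all genes were. Medians were 0.39, 0.63, 0.37, 0.20, 0.33 and 0.46. The higher counts in OPC-like, microglia-like and vascular-like nuclei were near their backgrounds. Without METH replicate 2 the vascular-like count was 6.

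In the range of 1000 to 4000 UMIs 38 of 73, 40 of 72, 21 of 71 and 12 of 71 nuclear members were called higher in nuclei of the inhibitory neuron-like, astrocyte-like, oligodendrocyte-like and the OPC-like class, where 25.4%, 34.9%, 32.9% and 33.4% of all genes were. Scaling also moved the counts. Without TMM factors the median of all genes rose by 0.156 (log2) in the inhibitory neuron-like, 0.240 in the astrocyte-like, 0.227 in the OPC-like, 0.398 in the microglia-like and 0.495 in the vascular-like contrast. Higher and lower shares of all genes then became 43.7% and 23.5%, 43.3% and 31.1%, 40.6% and 27.6%, 38.8% and 29%, 33.1% and 17.6%, and higher nuclear members numbered 66, 67, 40, 47 and 50.

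By complex, astrocyte-like nuclei had higher calls for 26 of 36 nuclear subunits of complex I, 4 of 4 of complex II, 7 of 8 of complex III, 10 of 11 of complex IV and 14 of 17 of complex V. Inhibitory neuron-like nuclei had 25 of 36, 4 of 4, 5 of 8, 11 of 12 and 13 of 17, and oligodendrocyte-like nuclei 15 of 36, 4 of 4, 4 of 8, 9 of 11 and 8 of 17. OPC-like nuclei had 12 of 36, 2 of 4, 1 of 8, 8 of 12 and 6 of 17. Of all genes 34.2%, 30.7%, 31.6% and 31.0% were higher in these contrasts, in that order, so the OPC-like complex I count was near its background. In microglia-like nuclei complex I had 8 higher and 7 lower of 36, and complex IV 6 higher and 0 lower of 12. There 28.9% of all genes were higher and 38.3% lower, so both complex I counts lay below their backgrounds. The complex IV median was above the complex I median in all 6 contrasts, at 0.90 against 0.57 in astrocyte-like nuclei.

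Cox6b2, 1 of the 77 nuclear members, was tested in only 3 of the 6 contrasts. Over all 4 libraries, 12 of the 13 mitochondrial genes and 9 of the 77 nuclear ones were called higher in all 6 contrasts. Of genes tested in all 6, 4.26% were. The nuclear ones were Cox6a1, Cox7c, Cox8a and Cox7a2l2 of complex IV, Ndufa4 (a complex IV subunit that keeps its complex I name and is counted by that name here), Ndufb8 and Ndufb11 of complex I, Uqcrb of complex III and Atp5mc2 of complex V. Cox6a1, the widely expressed form of Cox6a, stood at 20.6, 19.1, 21.1 and 19.4 CPM in astrocyte-like against 5.55, 4.55, 8.84 and 5.66 CPM in excitatory neuron-like nuclei (1.50 ± 0.18, edgeR adjusted p = 1.58e-07), and its difference was 0.96 among nuclei of 1000 to 4000 UMIs. Mt-nd6 (1.28 ± 0.29) and Atp5mc2 (1.29 ± 0.11) came next there. Of the 3 c-ring genes, which encode the same mature protein, Atp5mc2 was called higher in 6 contrasts, Atp5mc3 in 5 and Atp5mc1 in 2.

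Cox4i1, the common form of the regulatory subunit Cox4, stood at 119, 112, 105 and 103 CPM in astrocyte-like against 45.8, 43.9, 46.1 and 43.6 CPM in excitatory neuron-like nuclei (1.06 ± 0.08; called in 9 of 9 settings). It was also higher in inhibitory neuron-like (0.36), oligodendrocyte-like (0.32) and vascular-like nuclei (0.53), and had −0.08 in OPC-like and 0.17 in microglia-like nuclei without passing. The oligodendrocyte-like call held in 5 of 9 settings, and not among nuclei of 1000 to 4000 UMIs (0.19), and the vascular-like call in 4 of 8. Without TMM factors the microglia-like difference was called too (0.57), and the OPC-like estimate turned positive (0.15) without passing.

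Lower in at least 1 contrast were 13 of the 77 nuclear members, where 64.2% of genes tested in all 6 were, and 0 mitochondrial ones. Of these 1 identifier of Ndufa10l1 was lower in 5 contrasts, Ndufa5, Ndufa9 and Uqcrc2 in 4 and Cox7a2l and Ndufs3 in 3. Cox7a2l is on the list of isoform genes, and the others were singled out here after their values were seen. Cox7a2l, a factor that joins complexes III and IV, stood at 64.0, 72.5, 61.0 and 61.7 CPM in excitatory neuron-like and 53.2, 40.4, 41.1 and 48.5 CPM in OPC-like nuclei, without overlap. Its difference was −0.73 ± 0.11 in OPC-like, −0.65 ± 0.10 in astrocyte-like and −0.55 ± 0.12 in oligodendrocyte-like nuclei (edgeR adjusted p = 2.54e-08, 2.48e-06 and 9.75e-06). It was called lower there under all 9 settings, including no TMM factors (−0.50, −0.41 and −0.47) and 1000 to 4000 UMIs (−0.58, −0.49 and −0.39). Ndufa5, an accessory subunit of complex I, was lower in OPC-like (−0.61 ± 0.11) and oligodendrocyte-like nuclei (−0.61 ± 0.14) under all 9 settings, and higher in inhibitory neuron-like nuclei (0.39 ± 0.07).

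In Pvalb-like interneurons nuclear-encoded members were higher than in other interneurons, and mitochondrially encoded ones lower. These nuclei (413, 226, 541 and 288 per library) carried Pvalb at 45.5, 34.1, 34.5 and 26.9 CPM against 1.82, 0.818, 1.84 and 1.21 CPM in the other inhibitory neuron-like nuclei. Of 73 nuclear-encoded members tested, 32 were called higher than in the other nuclei and 1 lower, with a median log2 fold change of 0.31, where 20.9% of all genes were higher and 20.5% lower. Of 11 mitochondrially encoded members 0 were higher and 8 lower, with a median of −0.40.

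The sums showed the same in every library. Nuclear members summed to 3379, 3446, 3286 and 3344 CPM in Pvalb-like and 2588, 2592, 2675 and 2568 CPM in the other nuclei, without overlap. The mitochondrial share was 0.108%, 0.0649%, 0.104% and 0.0935% against 0.137%, 0.0872%, 0.131% and 0.155%, lower within each library although the ranges overlapped. Among the other types the nuclear sum was 2475, 2509, 2567 and 2465 CPM in Lamp5-like, 2610.2, 2557, 2697 and 2556 in Sst-like and 2633, 2704, 2725 and 2672 in Vip-like nuclei.

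**Figure D3:**
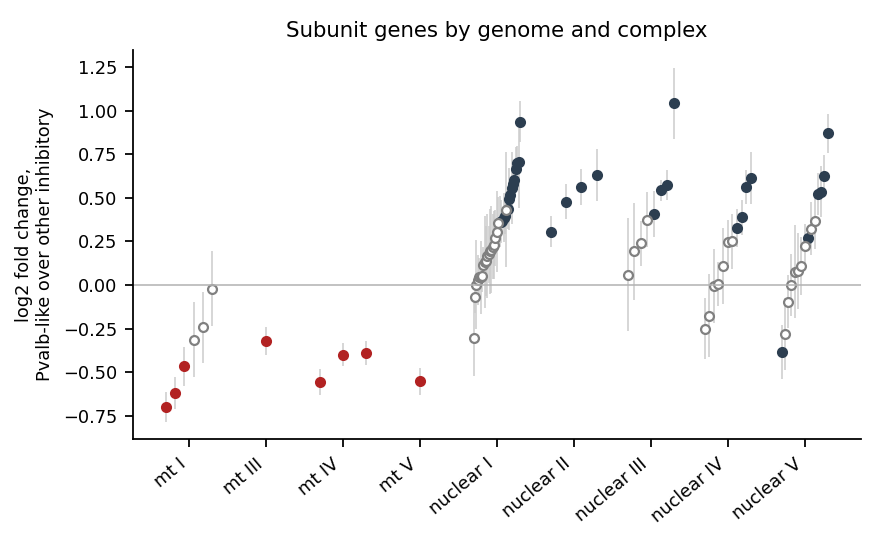
Points are subunit genes by genome and complex; the vertical axis is the log2 fold change of Pvalb-like over other inhibitory neuron-like nuclei with its SE (4 libraries, library as block), filled where edgeR's adjusted p was under 0.05. All 8 filled mitochondrial points lie below 0, and 32 of the filled nuclear points lie above it and 1 below.

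Each complex took part, with higher calls for 15 of 35 nuclear subunits of complex I, 4 of 4 of complex II, 4 of 8 of complex III, 4 of 11 of complex IV and 5 of 15 of complex V. Complex II, which has no mitochondrially encoded subunit, was higher in each gene: Sdha (0.31 ± 0.09) and Sdhb (0.48 ± 0.10), which form the catalytic arm, and the anchors Sdhc (0.56 ± 0.10) and Sdhd (0.63 ± 0.15). Sdhd stood at 31.6, 33.2, 28.8 and 32.9 CPM against 17.8, 22.5, 18.4 and 22.6 CPM, without overlap. The genes of complex II, and those below beyond Uqcrfs1, Ndufc1, Atp5f1a and the isoform genes, were singled out after their values were seen.

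Uqcrfs1, the Rieske iron-sulfur protein of complex III, stood at 19.4, 23.3, 12.3 and 22.8 CPM in Pvalb-like against 8.38, 11.5, 6.91 and 10.9 CPM in the other nuclei (1.04 ± 0.20, edgeR adjusted p = 4.65e-05). Among nuclei of 1000 to 4000 UMIs it had 0.80 (edgeR adjusted p = 0.0706). Ndufc1 of complex I stood at 62.1, 70.0, 72.3 and 61.8 against 35.3, 43.4, 30.0 and 28.7 CPM (0.94 ± 0.12). Atp5f1a stood at 74.3, 60.1, 74.8 and 66.5 against 39.0, 41.7, 34.6 and 34.8 CPM (0.87 ± 0.11), and in both genes the lowest Pvalb-like library lay above the highest of the other nuclei. Further higher genes were Ndufa5 (0.70), Ndufs3 (0.66), the ATP synthase beta subunit Atp5f1b (0.63), Cox7a2l (0.56), Uqcrc2 (0.54) and Atp5mc3 (0.53).

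Of the complex IV isoform genes Cox4i1 was higher (0.39 ± 0.10), though not among nuclei of 1000 to 4000 UMIs (0.22, edgeR adjusted p = 0.302). Cox6a1 (−0.18), Cox8a (−0.25) and Ndufa4 (0.04), which were higher in all 6 class contrasts above, did not pass here. The lower nuclear gene was Atp5if1, the inhibitory factor of ATP synthase, at 22.7, 28.7, 21.4 and 22.2 CPM against 32.8, 27.4, 33.6 and 27.9 CPM (−0.38 ± 0.15, edgeR adjusted p = 0.0426). It was lower in 3 of 4 libraries, and no nuclear member was called lower among nuclei of 1000 to 4000 UMIs or without either saline library.

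Among mitochondrial genes Mt-nd1 differed most, at 73.2, 52.0, 78.1 and 92.0 against 133, 77.7, 109.7 and 151 CPM (−0.70 ± 0.09, edgeR adjusted p = 4.29e-09). Mt-nd4 (−0.62), Mt-atp6 (−0.55), Mt-co2 (−0.55), Mt-nd2 (−0.47), Mt-co1 (−0.40), Mt-co3 (−0.39) and Mt-cyb (−0.32) were lower too, each in 4 of 4 libraries. The sparser Mt-nd5 (−0.31), Mt-nd3 (−0.24) and Mt-nd4l (−0.02) did not pass.

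Pvalb-like nuclei were deeper, with 4367, 4933, 2248 and 5173 UMIs each against 3671, 4279.8, 1969 and 4186. Among nuclei of 1000 to 4000 UMIs, where the means were 2818, 3040.0, 2109 and 2956 against 2722, 2765, 1968 and 2802 UMIs, 19 of 67 nuclear members were called higher (all genes 15.0%) and 5 of 11 mitochondrial ones lower (all genes 14.9%). Their medians were 0.29 and −0.39. Leaving out each library in turn gave 26 to 30 nuclear members higher and 7 or 8 mitochondrial ones lower.

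Beside these calls in Pvalb-like nuclei, promoters of members were searched for 4 short motifs known from respiratory genes. The windows run from 250 bases before to 50 after each start, from RefSeq with build GRCr8, and 73 of the 85 symbols had one. Exact matches on either strand were sought to the palindromic core of the NRF1 motif, TCAAGGTCA for the estrogen-related receptors (ERR), CCGGAAGT for ETS factors and AAGATGGC for YY1, and each promoter printed here held 1 of them. The NRF1 letters were in 5.48% of member promoters against 0.852% of all promoters (33469), and the ERR letters in 2.74% against 0.433%. The ETS letters were in 11.0% against 3.81% and the YY1 letters in 20.6% against 3.17%. At least 1 motif was in 26 of the 73 (35.6%), against 7.84% of all promoters. A match describes letters and is not a bound site.

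Promoters of 3 members higher in Pvalb-like nuclei are shown for the letters they hold: Atp5f1a (alpha subunit of the ATP synthase head, chr18:73567287-73567586, plus strand), Atp5mc3 (a gene for the rotating c ring, chr3:79220615-79220914, minus strand) and Sdhd (a membrane anchor of complex II, chr8:59850592-59850891, minus strand). Capitals mark the ETS letters in Atp5f1a and the ERR letters in Atp5mc3 and Sdhd, which lie on the other strand and so appear as their reverse complement.
Atp5f1a: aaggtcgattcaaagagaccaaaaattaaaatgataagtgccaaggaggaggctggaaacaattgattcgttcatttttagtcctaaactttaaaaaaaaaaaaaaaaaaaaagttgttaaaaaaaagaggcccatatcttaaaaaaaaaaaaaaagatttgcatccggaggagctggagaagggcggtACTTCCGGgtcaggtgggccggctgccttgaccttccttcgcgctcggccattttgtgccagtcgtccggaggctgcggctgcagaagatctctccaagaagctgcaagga
Atp5mc3: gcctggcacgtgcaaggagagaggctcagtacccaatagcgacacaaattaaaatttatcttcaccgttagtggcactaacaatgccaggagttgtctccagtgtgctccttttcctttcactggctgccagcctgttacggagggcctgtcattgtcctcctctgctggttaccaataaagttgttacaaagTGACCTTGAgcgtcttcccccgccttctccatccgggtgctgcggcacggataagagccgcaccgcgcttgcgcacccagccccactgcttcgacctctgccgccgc
Sdhd: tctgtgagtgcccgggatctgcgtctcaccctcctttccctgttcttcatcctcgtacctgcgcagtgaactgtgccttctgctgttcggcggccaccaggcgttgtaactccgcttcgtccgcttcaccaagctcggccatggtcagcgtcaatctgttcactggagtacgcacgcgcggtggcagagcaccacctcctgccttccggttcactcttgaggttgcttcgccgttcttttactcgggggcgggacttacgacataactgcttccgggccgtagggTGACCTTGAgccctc

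The ERR letters were in 2 of the 27 promoters at hand among members called higher in Pvalb-like nuclei, those of Atp5mc3 and Sdhd, and in 0 of 36 among the other members tested. The NRF1 letters were in 0 and 4, the ETS letters in 3 and 5, and the YY1 letters in 6 and 8 of them. Uqcrfs1 and Ndufc1 held none of the 4 motifs in this window. These small counts are a description.

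The minor isoforms were sparse. Cox4i2, the form of Cox4 known from lung and from oxygen-sensing cells, had 66 UMIs in all, 11 of them in the 172 mural-like nuclei (pericytes and smooth muscle of vessels), which held 0.114% of all UMIs. Per library these were 4, 5, 0 and 2 UMIs from 36, 62, 7 and 67 nuclei. Summed over libraries Cox4i2 stood at 70.1 CPM (35.0 to 125) in mural-like nuclei, with the 95% exact Poisson interval, against 0.307 CPM (0.209 to 0.436) in excitatory neuron-like and 3.72 CPM (0.0943 to 20.8), from 1 UMI, in endothelial-like nuclei. The intervals cover counting error only.

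Ndufa4l2 had its highest level in the same cluster of nuclei, with 11 of its 67 UMIs in mural-like nuclei (2, 6, 0 and 3 per library, 70.1 CPM, 35.0 to 125) against 0.367 CPM (0.258 to 0.506) in excitatory neuron-like nuclei, which held 37. Fibroblast-like nuclei had 0 UMIs of either gene, which allows up to 6.07 CPM, taken as 3 counts of the total. The pericyte marker Rgs5 stood at 1680.3, 1283, 0 and 814 CPM in mural-like nuclei, so it was at 0 in the 7 such nuclei of saline replicate 1, where both isoform genes were also at 0. With so few nuclei, mural-like nuclei were not tested. The promoter window of Ndufa4l2 (chr7:65241919-65242218, plus strand), a paralog of Ndufa4 known from hypoxic cells and pericytes, held the YY1 letters, in capitals. These letters span the annotated start and hold an ATG, from which no stop codon follows in frame up to the window's end. They may therefore be coding letters rather than promoter letters, which was not tested.
Ndufa4l2: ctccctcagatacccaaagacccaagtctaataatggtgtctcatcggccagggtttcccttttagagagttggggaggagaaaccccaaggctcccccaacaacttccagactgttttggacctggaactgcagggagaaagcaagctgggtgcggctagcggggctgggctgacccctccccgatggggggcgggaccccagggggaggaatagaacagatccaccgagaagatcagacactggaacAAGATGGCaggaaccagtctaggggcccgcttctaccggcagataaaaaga

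**Figure D4:**
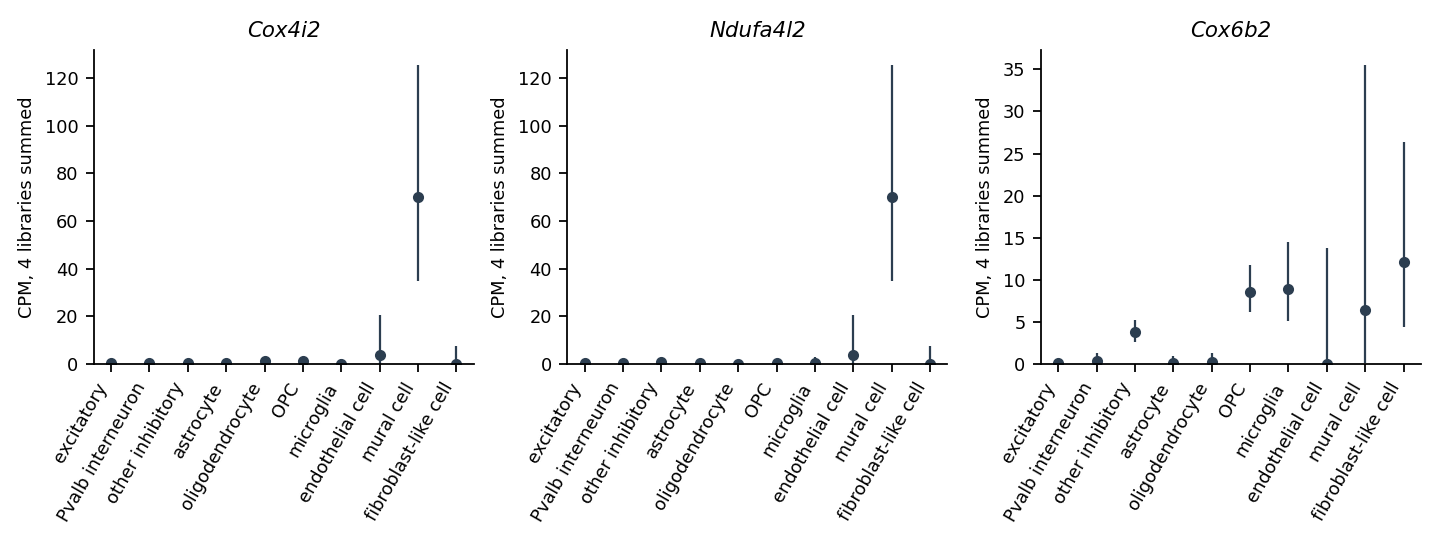
Points are CPM over the summed UMIs of the 4 libraries in each cell type, with 95% exact Poisson intervals for counting error, for 3 minor isoform genes on separate scales. Cox4i2 and Ndufa4l2 stand at 70.1 CPM in mural-like nuclei, and Cox6b2 at 8.61 and 8.89 CPM in OPC-like and microglia-like nuclei and 12.1 CPM, from 6 UMIs, in fibroblast-like nuclei.

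Cox6b2, known as the testis form of the complex IV subunit Cox6b, had 124 UMIs in all. They numbered 13, 12, 2 and 12 in OPC-like, 4, 7, 1 and 4 in microglia-like, 14, 8, 6 and 11 in inhibitory neuron-like and 5, 2, 6 and 1 in excitatory neuron-like nuclei, the last being the largest class. Astrocyte-like and oligodendrocyte-like nuclei had 1 UMI each. Vascular-like nuclei had 7 (7.61 CPM, 3.06 to 15.7), 6 of them in fibroblast-like nuclei (12.1 CPM, 4.45 to 26.4), whose interval takes in the OPC-like and microglia-like levels. Against excitatory neuron-like nuclei the log2 fold change was 5.59 ± 0.50 in OPC-like, 5.62 ± 0.68 in microglia-like and 3.93 ± 0.45 in inhibitory neuron-like nuclei. Each setting that tested it called it (8, 7 and 8). The filter on low counts kept Cox6b2 in only 3 of the 6 class contrasts, through the class where it is high. Its calls are therefore no separate support for the UMI counts, and they are included in the complex IV counts of those contrasts. Among interneurons 15 UMIs lay in Lamp5-like (6.54 CPM, 3.66 to 10.8), 12 in Vip-like (4.04 CPM, 2.09 to 7.06), 10 in Sst-like (2.19 CPM, 1.05 to 4.02) and 2 in Pvalb-like nuclei (0.356 CPM, 0.0431 to 1.28).

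Cox6a2, the heart and muscle form of Cox6a, had 17 UMIs in all, 6 of them in Pvalb-like nuclei (2, 0, 3 and 1 per library, 1.07 CPM, 0.391 to 2.32). The other inhibitory neuron-like nuclei had 1 (0.102 CPM, 0.00257 to 0.567) and excitatory neuron-like nuclei 5 (0.0496 CPM, 0.0161 to 0.116). The Pvalb-like and other inhibitory intervals overlap. Cox7a1 had 37 UMIs, Cox8b 4 and Cox8c 1 over all nuclei.

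Between METH and saline no member differed past the test in any class or over all nuclei. Without the filter on low counts 3 did, Mt-co2 in inhibitory neuron-like nuclei (−0.41 on the log2 scale) and Mt-nd1 and Mt-nd4 in astrocyte-like nuclei (−0.64 and −0.67), where 5 of 18401 and 5 of 16848 genes were lower. Over all nuclei 0 of 13 mitochondrially encoded and 0 of 82 nuclear-encoded members tested were called by edgeR's quasi-likelihood test at an adjusted p under 0.05, where 0% of all genes were. Within classes the shares of all genes called were 0.00664% in excitatory neuron-like, 0.0169% in inhibitory neuron-like, 0.00988% in astrocyte-like, 0.0335% in oligodendrocyte-like, 0.0204% in OPC-like, 0% in microglia-like and 0.0601% in vascular-like nuclei, and 0 members were called in each. A count of 0 members is near these backgrounds. DESeq2 called 0 members in each class and over all nuclei as well. At an unadjusted p under 0.05 edgeR had 0 of 95 members over all nuclei, where 6.14% of genes passed. Within classes it had 3 (3.45%), 3 (4.06%), 3 (3.38%), 4 (4.08%), 1 (4.42%), 3 (3.52%) and 4 (8.45%) members in the order just given.

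Mitochondrially encoded members had mostly negative estimates, as the plot of METH over saline by class shows. Their median log2 fold change was −0.07 over all nuclei, −0.13 in excitatory neuron-like, −0.28 in inhibitory neuron-like, −0.47 in astrocyte-like, −0.30 in oligodendrocyte-like, −0.19 in OPC-like, −0.06 in microglia-like and 0.44 in vascular-like nuclei. Estimates were negative for all 12 tested in astrocyte-like nuclei and positive for all 10 tested in vascular-like nuclei. Nuclear-encoded medians lay between −0.03 and 0.13, and those over all genes tested between −0.01 and 0.02. The mitochondrial genes share transcripts and libraries and are not independent of each other.

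**Figure D5:**
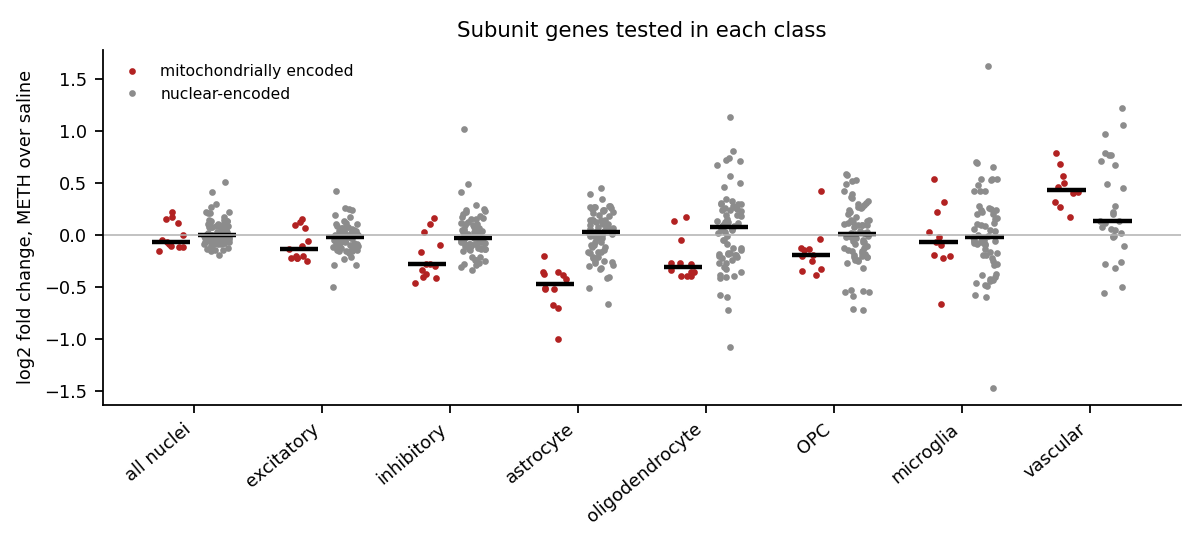
Each point is 1 subunit gene tested in a class; the vertical axis is its fitted log2 fold change of METH over saline (2 libraries each), with mitochondrially encoded and nuclear-encoded genes in separate colours and medians as black bars. With all 4 libraries the mitochondrial medians lie below 0 except in vascular-like nuclei (0.44), and the lowest is in astrocyte-like nuclei (−0.47).

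The 2 METH libraries differed from each other. Mitochondrially encoded members took 0.0983%, 0.0677%, 0.0865% and 0.0874% of UMIs over all nuclei, so METH replicate 2 was lowest and METH replicate 1 highest. METH replicate 2 was also lowest in 6 of the 7 classes, among them astrocyte-like (0.129%, 0.0778%, 0.168% and 0.118%) and inhibitory neuron-like nuclei (0.126%, 0.0802%, 0.122% and 0.132%), and it was highest in vascular-like nuclei (0.324%, 0.391%, 0.351% and 0.234%). Oligodendrocyte-like shares (0.380%, 0.258%, 0.413% and 0.403%) were the ones in which the groups did not overlap. The exact two-sided permutation test gave p = 0.33 there, the smallest that 2 libraries against 2 can give, and 6 of 12 mitochondrial genes had both METH libraries below both saline libraries, where 19.3% of all genes did. Among nuclei with at most 1% mitochondrial UMIs the oligodendrocyte-like median was 0.01. That limit is set on the compared counts themselves. The nuclei it removed held 43.5%, 41.4%, 52.8% and 59.2% of the mitochondrial UMIs of the class, a larger part in saline.

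Without METH replicate 1, 7 of 13 mitochondrially encoded members were called lower in inhibitory neuron-like, 7 of 13 in astrocyte-like, 3 of 13 in excitatory neuron-like, 2 of 12 in oligodendrocyte-like and 4 of 12 in OPC-like nuclei. Of all genes 14 of 12143, 18 of 10462, 13 of 15560, 5 of 9153 and 8 of 10315 were lower in these fits. The mitochondrial median was then −0.38 over all nuclei, −0.82 in astrocyte-like and −0.58 in oligodendrocyte-like nuclei. The lone METH library is there assumed to vary like the saline pair. Without METH replicate 2, 0 were called, the median over all nuclei was 0.21, and the medians were positive in excitatory neuron-like (0.18), inhibitory neuron-like (0.0025), OPC-like (0.15) and microglia-like nuclei (0.26). They shrank to −0.13 in astrocyte-like and −0.045 in oligodendrocyte-like nuclei. Without saline replicate 2 the mitochondrial median in astrocyte-like nuclei was −0.65, and the nuclear member Cox8a had −0.88 there. Members were called lower in that fit too, with both METH libraries kept and a lone saline library. Without saline replicate 1, which stood apart, the mitochondrial median in astrocyte-like nuclei was −0.29. In barcodes with under 500 genes the mitochondrial share was also lowest in METH replicate 2. The part of free RNA in the differences was not tested.

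Counts of members whose METH and saline libraries did not overlap lay on both sides of the share over all genes. Both METH values were above both saline values in 18 of 82 nuclear members over all nuclei (all genes 20.2%), 5 of 77 in excitatory neuron-like (11.6%), 11 of 76 in inhibitory neuron-like (16.5%), 13 of 73 in astrocyte-like (15.3%), 11 of 72 in OPC-like (15.9%), 11 of 71 in oligodendrocyte-like (13.7%), 6 of 63 in microglia-like (16.2%) and 8 of 29 in vascular-like nuclei (19.4%). They were below in 5 of 82 over all nuclei (15.8%), 19 of 77 in excitatory neuron-like (20.4%), 8 of 76 in inhibitory neuron-like (15.6%), 12 of 73 in astrocyte-like (15.3%), 13 of 72 in OPC-like (16.0%), 14 of 71 in oligodendrocyte-like (19.3%), 10 of 63 in microglia-like (15.6%) and 3 of 29 in vascular-like nuclei (21.0%). Of the mitochondrial genes 6 of 12 were below in oligodendrocyte-like, 3 of 13 in inhibitory neuron-like, 2 of 12 in astrocyte-like, 1 of 11 in OPC-like and 1 of 11 in microglia-like nuclei, and 2 of 10 were above in vascular-like nuclei. Over all nuclei and in excitatory neuron-like nuclei the groups overlapped in each of the 13.

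Whether the METH effect differed between classes was tested with a class-by-treatment term. Against excitatory neuron-like nuclei, 0 of all genes were called for inhibitory neuron-like (0%) and for astrocyte-like nuclei (0%), members included. At an unadjusted p under 0.05 the term had 537 of 14990 genes for inhibitory neuron-like and 490 of 15050 for astrocyte-like nuclei. Mitochondrial members among them numbered 0 of 13 and 5 of 13, and nuclear ones 5 of 80 and 4 of 77. The term's median over mitochondrial members was −0.09 and −0.31.

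Of the mitochondrial complex I genes in astrocyte-like nuclei, Mt-nd1 stood at 105 and 62.6 CPM with METH against 149.7 and 111 CPM with saline, a log2 fold change of −0.67 ± 0.24 (SE, 2 against 2 libraries, edgeR adjusted p = 0.999). Mt-nd4 stood at 99.3 and 60.1 CPM with METH against 150.5 and 103 CPM with saline (−0.70 ± 0.26). In both genes METH replicate 1 lay just below saline replicate 2 and METH replicate 2 far below it. These were the 2 mitochondrial genes under an unadjusted p of 0.05 in this class, where 3.38% of all genes were. Mt-nd5 had −0.99 ± 0.46, Mt-nd2 −0.37, Mt-nd3 −0.52, Mt-nd4l −0.20 and Mt-nd6 −0.35, all with overlapping groups.

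In inhibitory neuron-like nuclei Mt-nd4 had −0.46, Mt-nd3 −0.40, Mt-nd5 −0.38, Mt-nd1 −0.34, Mt-nd2 −0.10, Mt-nd4l 0.16 and Mt-nd6 0.03. Mt-nd6, read from the other strand of the mitochondrial DNA, was sparse at 6.81, 2.53, 4.72 and 4.79 CPM, and its sign turned negative in 5 of 12 alternative settings.

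The catalytic core of complex IV (Mt-co1 to Mt-co3), Mt-cyb and the ATP synthase subunits were also mostly lowest in METH replicate 2. In inhibitory neuron-like nuclei Mt-co2 stood at 173 and 115 CPM with METH against 189 and 197 CPM with saline (−0.41 ± 0.20, edgeR adjusted p = 0.998), without overlap. Mt-co3 stood at 219.6 and 139 CPM with METH against 209.7 and 228 CPM with saline (−0.28 ± 0.25), where METH replicate 1 lay between the saline libraries. The other estimates there were −0.16 for Mt-co1, −0.28 for Mt-cyb, −0.29 for Mt-atp6 and 0.11 for Mt-atp8, whose reading frame overlaps that of Mt-atp6. Astrocyte-like estimates were −0.42, −0.35, −0.52, −0.38 and −0.51 for Mt-co1, Mt-co2, Mt-co3, Mt-cyb and Mt-atp6, and Mt-atp8 was too sparse to test.

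Among nuclear subunits the smallest p was that of Atp5f1e, the epsilon subunit of the ATP synthase stalk, in inhibitory neuron-like nuclei. It stood at 11.7 and 12.9 CPM with METH against 5.91 and 6.06 CPM with saline, without overlap, a log2 fold change of 1.02 ± 0.27 (edgeR adjusted p = 0.998). Cox5b of complex IV had 0.49 ± 0.23, Ndufa4 −0.30 ± 0.14 and Cox7c −0.21 ± 0.13. Of 76 nuclear members 3 were under an unadjusted p of 0.05, where 4.06% of all genes were.

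In astrocyte-like nuclei Cox8a, a small subunit of complex IV, stood at 36.8 and 38.1 CPM with METH against 70.2 and 48.5 CPM with saline (−0.66 ± 0.21, edgeR adjusted p = 0.999), without overlap. Uqcrh, the hinge protein of complex III, had 0.28 ± 0.15, Ndufab1, the acyl carrier protein of complex I, 0.25 ± 0.15 and Ndufa5 −0.31 ± 0.20. None of them passed the test.

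In oligodendrocyte-like nuclei Mt-co2 stood at 533 and 392 CPM with METH against 639.8 and 578 CPM with saline (−0.36 ± 0.14), without overlap, while Mt-co1 had −0.26 ± 0.14, Mt-nd4l 0.14 and Mt-nd6 0.17. The nuclear genes with the smallest p in each direction were Ndufb5 (0.72 ± 0.29) and Ndufa2 (1.13 ± 0.55) of complex I with positive estimates, and Atp5me of ATP synthase (−0.60 ± 0.28) and Ndufb11 (−0.71 ± 0.38) with negative ones. In OPC-like nuclei Mt-co1 stood at 276 and 208 CPM with METH against 319 and 309.5 CPM with saline (−0.38 ± 0.11, edgeR adjusted p = 0.739), without overlap. It was the 1 member under an unadjusted p of 0.05 there, where 4.42% of all genes were. Other estimates there were Mt-cyb (−0.20), Mt-nd5 (0.42), Ndufb8 (−0.71), Ndufb5 (−0.55) Atp5me (0.58) and 1 identifier of Ndufv3 (0.58).

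In microglia-like nuclei Ndufv1, the complex I subunit that binds NADH, stood at 17.3 and 11.4 CPM with METH against 51.5 and 36.0 CPM with saline (−1.47 ± 0.49, edgeR adjusted p = 1.00), without overlap, and Uqcrq of complex III at 19.2 and 27.6 CPM with METH against 7.36 and 7.57 CPM with saline (1.62 ± 0.72). Cox4i1 had 0.54, Ndufs4 −0.49, Mt-nd5 0.54, Mt-nd1 0.23, Mt-nd3 −0.66 and Mt-cyb −0.20. Saline replicate 1 gave 156 of these nuclei against 500 to 564 in the other libraries. Both saline values of Uqcrq rest on very few UMIs, so its estimate is uncertain.

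Vascular-like nuclei had positive estimates for the mitochondrial genome. Mt-nd2 stood at 162 and 207 CPM with METH against 139 and 112 CPM with saline (0.69 ± 0.29, edgeR adjusted p = 0.565), without overlap, and Mt-nd4 had 0.57 ± 0.30. Cox7a2l stood at 85.0 and 98.3 CPM with METH against 53.5 and 36.4 CPM with saline (1.22 ± 0.40) and Ndufc2 of complex I at 139 and 105 CPM with METH against 53.5 and 58.2 CPM with saline (1.06 ± 0.37), while Cox4i1 had 0.97 ± 0.37 and Uqcrc2 and Uqcrb of complex III −0.50 ± 0.30 and −0.55 ± 0.52. Of the members tested 1 mitochondrial and 3 nuclear ones were under an unadjusted p of 0.05, where 8.45% of all genes were. The makeup of the class moved too: fibroblast-like nuclei were 34.0%, 35.4%, 78.8% and 46.4% of it, and summed astrocyte markers stood at 1800, 2060, 4205 and 2688 CPM in it, with the defining marker list of the class at 6876, 6545, 3573 and 6087 CPM. Their part in the difference was not tested. Within fibroblast-like nuclei the mitochondrial share was 0.372%, 0.501%, 0.384% and 0.278% and within endothelial-like nuclei 0.209%, 0.257%, 0.203% and 0.172%, highest in METH replicate 2 in both. In the sparser mural-like nuclei it was 0.427%, 0.350%, 0.205% and 0.191%, highest in METH replicate 1.

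Excitatory neuron-like nuclei were the deepest class. Ndufa5 had 0.19 ± 0.07, Cox7a2l 0.18 ± 0.07, Cox7c of complex IV −0.21 ± 0.09 and Cox6a1 −0.50 ± 0.22, with Mt-nd4l at 0.16, Mt-nd5 at 0.10, Mt-co1 at −0.11 and Mt-cyb at −0.22. Over all nuclei the smallest p in each direction were those of Ndufc2 (0.14), Ndufb6 (0.28), Cox7c (−0.13) and Ndufv1 (−0.14), and among mitochondrial genes Mt-nd4l (0.22), Mt-atp8 (0.16), Mt-co2 (−0.11) and Mt-nd4 (−0.15). Isoform genes over all nuclei had 0.08 for Cox4i1, −0.15 for Cox6a1, 0.11 for Cox7a2l, −0.01 for Cox8a, 0.09 for Ndufa4, and −0.09, 0.14 and −0.08 for Atp5mc1, Atp5mc2 and Atp5mc3. Over all nuclei the summed nuclear-encoded members stood at 2297, 2357, 2275 and 2273 CPM. Each METH value exceeded each saline value, by a mean of 52.9 CPM (exact permutation p = 0.33, the smallest possible). Excitatory neuron-like nuclei, the class with the lowest sum, made up 44.6%, 40.1%, 61.8% and 47.4% of kept nuclei. Within every class the groups overlapped, with differences of −29.1 CPM in that class, −57.3 in oligodendrocyte-like, −10.0 in OPC-like and −10.2 in microglia-like nuclei. The differences were 3.39, 71.4 and 434 CPM in inhibitory neuron-like, astrocyte-like and vascular-like nuclei. The part of cell makeup was not tested.

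Genes around the chain did not pass the test either. In the lists of assembly factors (46 genes), electron carriers and coenzyme Q synthesis (20), mitochondrial biogenesis and mitochondrial DNA expression (26), the TCA cycle (22), glycolysis and lactate (23), and ATP and phosphate carriers with porins (15), 0 genes were called higher or lower in any class or over all nuclei by edgeR, at the backgrounds above, and 0 by DESeq2. At an unadjusted p under 0.05 edgeR had 6 of 142 list genes over all nuclei, where 6.14% of all genes passed. In a class it had 2 to 5 of the 44 to 139 tested, where 3.38% to 8.45% of all genes passed. List medians lay between −0.08 and 0.24. Pdk4, which brakes pyruvate entry into the TCA cycle, had 1.14 ± 0.28 in oligodendrocyte-like nuclei (edgeR adjusted p = 0.52). Ssbp1, which binds single-stranded mitochondrial DNA, had 0.51 ± 0.14 in inhibitory neuron-like nuclei, Cox11, a copper chaperone of complex IV, 0.57 ± 0.17 in astrocyte-like nuclei, and Slc25a4, the ADP/ATP carrier, 1.06 ± 0.32 in vascular-like nuclei. In the remaining lists the smallest p were those of Coq6 of coenzyme Q synthesis in OPC-like nuclei (−0.66 ± 0.29) and of Aldoc of glycolysis over all nuclei (0.37 ± 0.12).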

How the data were processed

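Single-nucleus RNA of 4 libraries was analysed, 2 from METH and 2 from saline rats. The files hold raw UMI counts per gene and barcode that the authors deposited. The matrices come from Cell Ranger 7.0.0, per the file headers. Per the submitters' processing notes the build was hg38, although the gene identifiers are rat Ensembl identifiers, so no coordinates were taken from the files.

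Barcodes with at least 500 genes and at most 5% mitochondrial UMIs were kept. Doublets were removed as the highest Scrublet scores, at 0.8% per 1000 barcodes (831, 628, 2750 and 569, in the order METH 1, METH 2, saline 1, saline 2), because Scrublet's own threshold marked 0% of saline replicate 1. Nuclei were clustered in Scanpy 1.11.5 (3000 variable genes without the members, 30 components, 20 neighbours, Leiden resolution 1). Clusters were named from fixed marker lists. Naming each nucleus by its own markers gave the same name to 96.9% of the 24705 nuclei named both ways.

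Counts were summed per library and class, for classes of at least 50 nuclei in every library, and tested in edgeR 4.0.16 (R 4.3.3) by the quasi-likelihood test with TMM factors, a filter on low counts and Benjamini-Hochberg adjustment over all genes tested. Class contrasts kept the library as a block. CPM is relative to all UMIs of the sum. Fold changes are log2 values fitted by edgeR. Alternatives were DESeq2 1.42.0, no TMM factors, no filter on low counts, other limits on nuclei, doublets kept, naming by own markers, a replicate block, and leaving out each library. The limit of 1000 to 4000 UMIs, and leaving out libraries in contrasts between classes, were chosen after seeing the data.

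Members and gene lists were chosen with earlier results of these data known. Genes named between METH and saline were the mitochondrially encoded members in inhibitory neuron-like and astrocyte-like nuclei, the isoform genes, and in each class the 2 mitochondrial and 2 nuclear members of smallest p in each direction. Between classes they were the 3 largest differences called alike in every library, and in other lists the genes of smallest p. Promoters of 12 symbols were not used here.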

Additional observations from a re-analysis of the deposited data

How the results depend on the processing

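Between METH and saline the number of genes called was 0 over all nuclei, 1 in excitatory neuron-like, 2 in inhibitory neuron-like, 1 in astrocyte-like, 3 in oligodendrocyte-like, 2 in OPC-like, 0 in microglia-like and 3 in vascular-like nuclei by edgeR. It became 20 over all nuclei, 3 in excitatory neuron-like, 1 in inhibitory neuron-like, 1 in OPC-like and 0 in vascular-like nuclei with DESeq2. With no filter on low counts it was 1 over all nuclei, 3 in excitatory neuron-like, 10 in inhibitory neuron-like, 12 in astrocyte-like, 22 in oligodendrocyte-like and 58 in vascular-like nuclei. With at most 1% mitochondrial UMIs it was 2 in astrocyte-like, 1 in OPC-like and 12 in vascular-like nuclei. With doublets kept it was 1 in inhibitory neuron-like, 0 in astrocyte-like, 0 in oligodendrocyte-like, 1 in microglia-like and 11 in vascular-like nuclei. With each nucleus named by its own marker UMIs it was 0 in astrocyte-like, oligodendrocyte-like, OPC-like and vascular-like nuclei. Mitochondrially encoded members called with no filter numbered 1 in inhibitory neuron-like nuclei (Mt-co2) and 2 in astrocyte-like nuclei (Mt-nd1 and Mt-nd4). The groups share replicate numbers, but the deviations of same-numbered libraries correlated at only −0.05 to 0.18 over classes and all nuclei, and nothing ties a number to an animal or day. With the replicate block 13 over all nuclei, 2 in excitatory neuron-like, 4 in inhibitory neuron-like, 21 in astrocyte-like, 40 in oligodendrocyte-like, 4 in OPC-like, 2 in microglia-like and 7 in vascular-like nuclei were called. Of the astrocyte-like calls 4 were mitochondrially encoded, namely Mt-nd1 (−0.66), Mt-nd4 (−0.68), Mt-atp6 (−0.52) and Mt-co3 (−0.53). Mt-nd6 in inhibitory neuron-like nuclei had −0.058. With at most 1% mitochondrial UMIs per nucleus, a limit on the compared counts themselves, the mitochondrial median in oligodendrocyte-like nuclei was 0.0068. The METH minus saline difference of the mitochondrial share was −0.00394 percentage points there and −0.00289 in vascular-like nuclei (against −0.0886 and 0.0649). The nuclear sum then differed by 55.4 CPM in vascular-like nuclei (against 434). Log2 estimates changed sign to 0.048 for Mt-nd2 in inhibitory neuron-like nuclei, 0.090 for Mt-co1 in oligodendrocyte-like nuclei and 0.025 for Mt-cyb in OPC-like nuclei. When at least 1000 genes were asked of each nucleus, the share differed by −0.0822 percentage points in astrocyte-like nuclei (against −0.0393) and the nuclear sum by 122 CPM in OPC-like nuclei (against −10.0). That setting could not be fitted in oligodendrocyte-like, microglia-like and vascular-like nuclei, which had under 50 nuclei in a library. With nuclei named by their own markers the nuclear sum differed by 39.6 CPM in inhibitory neuron-like (against 3.39) and 204 CPM in microglia-like nuclei (against −10.2). The nuclear median in inhibitory neuron-like nuclei was −0.0089, and log2 estimates changed sign to −0.019 for Mt-nd6 in inhibitory neuron-like nuclei and 0.047 for Mt-cyb in OPC-like nuclei. With doublets kept the estimate was −0.080 for Mt-nd6 in inhibitory neuron-like nuclei and 0.20 for Mt-nd4l in astrocyte-like nuclei, and the nuclear sum differed by 177 CPM in astrocyte-like nuclei (against 71.4). With DESeq2 the estimate was −0.0074 for Mt-nd6 in inhibitory neuron-like nuclei. With no filter the nuclear median in vascular-like nuclei was 0.43. Between classes, without TMM factors nuclear-encoded members called higher numbered 47 in microglia-like and 50 in vascular-like nuclei. There nuclear-encoded members called lower numbered 3 in OPC-like, 1 in astrocyte-like, 3 in microglia-like and 0 in vascular-like nuclei. With no filter nuclear-encoded members called lower numbered 2 in Pvalb-like, 5 in astrocyte-like, 2 in inhibitory neuron-like and 7 in vascular-like nuclei. The class-by-treatment term was then called in 9 genes for inhibitory neuron-like and 4 for astrocyte-like nuclei. With nuclei named by their own markers nuclear-encoded members called lower numbered 4 in OPC-like, 1 in astrocyte-like, 4 in microglia-like and 1 in vascular-like nuclei. Among nuclei of 1000 to 4000 UMIs nuclear-encoded members called higher numbered 12 in OPC-like, 19 in Pvalb-like, 40 in astrocyte-like, 38 in inhibitory neuron-like and 21 in oligodendrocyte-like nuclei. There nuclear-encoded members called lower numbered 0 in Pvalb-like and 3 in oligodendrocyte-like nuclei. There mitochondrially encoded members called higher numbered 5 in astrocyte-like nuclei. There mitochondrially encoded members called lower numbered 5 in Pvalb-like nuclei. Leaving out 1 library at a time gave 0 to 298 over all nuclei, 7 to 53 in excitatory neuron-like, 2 to 35 in inhibitory neuron-like, 2 to 126 in astrocyte-like, 3 to 62 in oligodendrocyte-like, 1 to 25 in OPC-like, 0 to 13 in microglia-like and 17 to 182 in vascular-like nuclei called. Mitochondrial medians ranged over −0.38 to 0.21 over all nuclei, −0.56 to 0.18 in excitatory neuron-like, −0.71 to 0.0025 in inhibitory neuron-like, −0.59 to 0.15 in OPC-like, −0.49 to 0.26 in microglia-like and 0.079 to 0.69 in vascular-like nuclei. Nuclear medians ranged over −0.044 to 0.064 over all nuclei, −0.040 to 0.012 in inhibitory neuron-like, −0.025 to 0.072 in astrocyte-like, −0.046 to 0.13 in oligodendrocyte-like, −0.070 to 0.079 in OPC-like and 0.081 to 0.37 in vascular-like nuclei. Mitochondrially encoded members called numbered 0 to 3 in excitatory neuron-like, 0 to 7 in inhibitory neuron-like, 0 to 7 in astrocyte-like, 0 to 2 in oligodendrocyte-like and 0 to 4 in OPC-like nuclei. Nuclear-encoded members called numbered 0 to 1 in astrocyte-like nuclei, and genes with the class-by-treatment term 2 to 57 for inhibitory neuron-like and 0 to 160 for astrocyte-like nuclei. Nuclear-encoded members called against excitatory neuron-like nuclei numbered 6 to 21 higher and 3 to 7 lower in vascular-like nuclei and 1 to 4 lower in astrocyte-like nuclei. Against the other inhibitory neuron-like nuclei 0 to 1 were called lower in Pvalb-like nuclei. Estimates of METH over saline that changed sign without 1 library ranged over −0.076 to 0.36 for Mt-atp8, −0.39 to 0.12 for Mt-co2, −0.54 to 0.15 for Mt-nd4 and −0.18 to 0.54 for Mt-nd4l over all nuclei. They ranged over −0.25 to 0.028 for Mt-co1, −0.56 to 0.055 for Mt-cyb, −0.48 to 0.60 for Mt-nd4l and −0.34 to 0.43 for Mt-nd5 in excitatory neuron-like nuclei. They ranged over −0.76 to 0.033 for Mt-atp6, −0.38 to 0.42 for Mt-atp8, −0.45 to 0.062 for Mt-co1, −0.65 to 0.0025 for Mt-co3, −0.54 to 0.21 for Mt-nd2, −0.086 to 0.35 for Mt-nd4l and −0.90 to 0.51 for Mt-nd6 in inhibitory neuron-like nuclei. They ranged over −0.64 to 0.016 for Mt-co2, −0.71 to 0.026 for Mt-cyb, −0.82 to 0.018 for Mt-nd2, −0.75 to 0.27 for Mt-nd4l and −0.74 to 0.052 for Mt-nd6 in astrocyte-like nuclei. They ranged over −0.13 to 0.29 for Mt-nd4l and −0.29 to 0.51 for Mt-nd6 in oligodendrocyte-like nuclei. They ranged over −0.57 to 0.11 for Mt-cyb in OPC-like nuclei. They ranged over −0.56 to 0.090 for Mt-cyb, −0.22 to 0.74 for Mt-nd1 and −0.26 to 1.09 for Mt-nd5 in microglia-like nuclei. Each of these signs changed when 1 METH or saline library was left out, and the cause was not tested. The mitochondrial medians stayed negative at −0.82 to −0.13 in astrocyte-like and −0.58 to −0.045 in oligodendrocyte-like nuclei when 1 library was left out. The SD between libraries of a group, of the median log2 level of members, was 0.29 to 0.46 for mitochondrially encoded and 0.013 to 0.17 for nuclear-encoded members over classes and all nuclei.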
